A study of Mus musculus with 4 samples.

Results

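Imprinted control regions are stretches of CpG-rich DNA at which the maternal and the paternal allele carry different methylation. Of 1480609 CpGs covered in at least 1 library, 473 lay in 21 such regions, taken as a list of intervals on the mouse build mm9 and widened by 500 bp on each side. The list gives positions and uses no measured value, though it was chosen with earlier results of these data known. In 19 of the 21 regions every library had at least 10 reads, and these 19 were kept: 17 are known to be methylated on the maternal allele and 2, H19 and Meg3, on the paternal allele. Peg10 was dropped, with 12 reads in B cells of Sca1-BCL6Δ mice, 22 in wild-type B cells, 8 in Sca1-BCL6Δ HSPCs and 6 in wild-type HSPCs, and Rasgrf1 had 0 reads in all 4 libraries.

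The methylation of a control region is laid down in the egg or the sperm, survives the wave of demethylation after fertilisation and is copied at each cell division, so that body tissues keep a methylated and an unmethylated allele side by side. Many of these regions are promoters of noncoding RNAs or retrogenes, and others are insulators; the allele that lacks methylation is the active one for that element. Blood stem and progenitor cells and their mature descendants are both known to keep such marks, and for this reason the regions serve as an internal yardstick of a bisulphite assay.

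The study asked how methylation differs after a short period of Bcl6 expression in stem and progenitor cells; Bcl6 is a transcriptional repressor of germinal centre B cells and a lymphoma oncogene. There were 4 libraries of reduced representation bisulphite sequencing (RRBS), in which DNA is cut at MspI and TaqI sites, unmethylated cytosines are converted and fragment ends are sequenced. The Sca1-BCL6Δ B cell and Sca1-BCL6Δ HSPC libraries came from mice that carry a Bcl6 cDNA driven by the Sca1 promoter, which is active in stem and progenitor cells, and that lose the cDNA through Cre once Cd79a, a B cell receptor component, is switched on. The wild-type B cell and wild-type HSPC libraries came from mice without the transgene. All mice were CBAxC57BL/6J. HSPCs were Sca1+Lin- cells of bone marrow and B cells were B220+ cells of peripheral blood, both sorted, so that a Sca1 gate selected the HSPCs of mice in which Sca1 also drives the transgene. A library was made from the pooled DNA of 6 to 9 mice, and the ages of the mice and the transgenic line were not given in the sources used here. Cell identity could not be checked against expression markers, since only methylation was measured. With 1 library per group, a test sets the reads of 1 library against those of another and not 1 condition against another, so its p-value carries no variation between animals. Neither the expression of the transgene nor its removal was measured here.

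Sequences were shown for the regions whose measured CpGs could be tied to a promoter, so that a reader can see which CpGs were read. Promoter sequences of 300 bases, from 250 before to 50 after the gene start, came from RefSeq on build GRCm38.p6. A sequence was accepted where at least 5 measured CpGs all fell on CpGs of the sequence at the same spacing and at 1 place only, because the files use mm9 and the positions themselves could not be compared. Of 32 promoter sequences of 17 regions, 3 were placed. Mcts2 lies at chr2:152686898-152687197, Plagl1 at chr10:13090582-13090881 and Zrsr1 at chr11:22971755-22972054, all printed 5′ to 3′ on the plus strand of GRCm38.p6. Mcts2 and Zrsr1 were among the regions chosen for a full description, and Plagl1 was shown after its values were seen. Capitals mark the CpGs with reads in at least 1 library.
Mcts2: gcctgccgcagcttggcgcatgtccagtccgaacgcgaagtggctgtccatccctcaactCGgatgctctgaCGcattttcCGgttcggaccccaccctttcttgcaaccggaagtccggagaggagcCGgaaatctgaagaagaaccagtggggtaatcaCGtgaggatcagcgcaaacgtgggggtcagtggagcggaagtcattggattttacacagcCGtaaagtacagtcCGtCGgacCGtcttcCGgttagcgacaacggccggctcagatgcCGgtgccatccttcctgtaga
Plagl1: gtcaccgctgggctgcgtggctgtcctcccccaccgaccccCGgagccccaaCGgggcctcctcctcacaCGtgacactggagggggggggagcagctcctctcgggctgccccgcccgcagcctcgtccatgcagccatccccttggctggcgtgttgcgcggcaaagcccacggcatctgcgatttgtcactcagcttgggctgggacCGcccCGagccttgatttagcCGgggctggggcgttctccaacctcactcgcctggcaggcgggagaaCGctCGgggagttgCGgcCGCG
Zrsr1: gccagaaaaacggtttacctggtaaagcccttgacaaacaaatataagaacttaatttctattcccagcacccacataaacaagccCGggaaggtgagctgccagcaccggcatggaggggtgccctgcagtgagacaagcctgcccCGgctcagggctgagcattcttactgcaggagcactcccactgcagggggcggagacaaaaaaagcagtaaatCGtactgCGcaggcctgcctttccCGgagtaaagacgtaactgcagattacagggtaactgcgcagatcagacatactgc
In Mcts2, 11 of the 25 CpGs of the sequence were measured, in Plagl1 11 of 26 and in Zrsr1 5 of 10. The measured CpGs stood in short clusters, because only the ends of restriction fragments are read. Every fragment end in these sequences fell on a CCGG or TCGA, the letters cut by MspI and TaqI: 7 of 7 in Mcts2, 4 of 4 in Plagl1 and 3 of 3 in Zrsr1.

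Reads with a CpG numbered 3612662 in B cells of Sca1-BCL6Δ mice, 8336720 in wild-type B cells, 2614482 in Sca1-BCL6Δ HSPCs and 4939456 in wild-type HSPCs. Mean coverage of the member CpGs was 6.85 reads in B cells of Sca1-BCL6Δ mice, 12.02 in wild-type B cells, 5.55 in Sca1-BCL6Δ HSPCs and 7.43 in wild-type HSPCs, and 314 of the 473 CpGs had a read in all 4 libraries. One library stood apart over the rest of the genome. Of 70347 other CpGs with at least 10 reads in each library, 12.9% lay between 20 and 80% methylation in B cells of Sca1-BCL6Δ mice, 14.2% in wild-type B cells, 14.9% in Sca1-BCL6Δ HSPCs and 26.8% in wild-type HSPCs. Results that use the wild-type HSPC library are therefore given beside those that do not.

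Most control regions were intermediate in every library. The level of a region, its methylated read counts pooled over all of its CpGs, had a median over 19 regions of 53.5% in B cells of Sca1-BCL6Δ mice (range 46.1 to 96.8%), 51.6% in wild-type B cells (37.4 to 98.0%), 58.1% in Sca1-BCL6Δ HSPCs (38.75 to 94.3%) and 50.8% in wild-type HSPCs (38.1 to 83.1%). Levels of 30 to 70% were found in 17 regions in B cells of Sca1-BCL6Δ mice, 17 in wild-type B cells, 14 in Sca1-BCL6Δ HSPCs and 16 in wild-type HSPCs, and 13 regions stayed in that range in every library. Counted as reads, with a read taken as methylated when at least 50% of its CpGs were, the Wilson 95% interval of the share of methylated reads held 50% in 57 of 76 pairs of region and library, lay above it in 17 and below it in 2. Those below were Gnas exon 1A in wild-type HSPCs, with 39.2% methylated reads (95% interval 30.1 to 49.1%), and Plagl1 in wild-type B cells, with 38.4% (29.4 to 48.2%). These intervals cover counting error only, since reads can be PCR copies of 1 molecule. In DNA pooled from many cells, a level between 0 and 100% can come from the alleles of each cell or from different cells, and neither these levels nor the reads tell the parental alleles apart.

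The contrast with other CpGs showed at single sites too. Among CpGs with at least 10 reads in all 4 libraries, 23 were in control regions, 6 of the 19, and 23 of them lay between 20 and 80% in B cells of Sca1-BCL6Δ mice, 23 in wild-type B cells, 23 in Sca1-BCL6Δ HSPCs and 22 in wild-type HSPCs. The highest of the shares of other CpGs given above was the 26.8% of wild-type HSPCs. Taking each library alone, CpGs with at least 10 reads in it lay between 20 and 80% in 86 of 93 cases (17 regions) in B cells of Sca1-BCL6Δ mice, 207 of 237 (19 regions) in wild-type B cells, 64 of 69 (11 regions) in Sca1-BCL6Δ HSPCs and 118 of 133 (17 regions) in wild-type HSPCs. Of other CpGs with at least 10 reads in that library, 15.2% lay there in B cells of Sca1-BCL6Δ mice, 17.7% in wild-type B cells, 16.2% in Sca1-BCL6Δ HSPCs and 37.0% in wild-type HSPCs.

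Chromosome 2 held the region with the most reads and also the 1 farthest from 50%. The control region of the Gnas cluster at Nespas (chr2:174119000-174126482 on mm9, as all region positions here), from which an antisense RNA to the Nesp transcript starts, had the most reads, 146 in B cells of Sca1-BCL6Δ mice, 348 in wild-type B cells, 118 in Sca1-BCL6Δ HSPCs and 223 in wild-type HSPCs. Its levels were 53.3% in B cells of Sca1-BCL6Δ mice, 50.8% in wild-type B cells, 55.2% in Sca1-BCL6Δ HSPCs and 51.7% in wild-type HSPCs. All 4 values lay within 4.42 points of each other, the narrowest range of the 19 regions. Single fragment ends inside it varied more: the end at 174123520 to 174123549, with 4 CpGs, had 6 of 6 methylated reads in B cells of Sca1-BCL6Δ mice, 16 of 16 in wild-type B cells, 2 of 3 in Sca1-BCL6Δ HSPCs and 15 of 15 in wild-type HSPCs. In the 3 libraries with at least 6 reads there, every read was methylated.

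Gnas exon 1A (chr2:174152000-174154000), the promoter of an alternative untranslated first exon that governs silencing of the stimulatory G protein alpha subunit, had levels of 49.4% in B cells of Sca1-BCL6Δ mice, 59.9% in wild-type B cells, 47.0% in Sca1-BCL6Δ HSPCs and 40.0% in wild-type HSPCs. It had 72 reads in B cells of Sca1-BCL6Δ mice, 170 in wild-type B cells, 77 in Sca1-BCL6Δ HSPCs and 97 in wild-type HSPCs. Wild-type B cells were highest and wild-type HSPCs lowest, with the Sca1-BCL6Δ libraries between them. Nnat (chr2:157385786-157387398), which encodes the small membrane protein neuronatin and lies inside Blcap, had levels of 50% in B cells of Sca1-BCL6Δ mice (41 reads), 61.0% in wild-type B cells (160 reads), 38.75% in Sca1-BCL6Δ HSPCs (26 reads) and 46.0% in wild-type HSPCs (64 reads). The listed part of the Nnat region was lower than its added flanks in every library: 47.1% against 87.5% in Sca1-BCL6Δ B cells, 58.5% against 83.0% in wild-type B cells, 35.5% against 100% in Sca1-BCL6Δ HSPCs and 42.4% against 87.5% in wild-type HSPCs. The flanks had only 8 counts in B cells of Sca1-BCL6Δ mice, 47 in wild-type B cells, 4 in Sca1-BCL6Δ HSPCs and 16 in wild-type HSPCs.

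Mcts2 (chr2:152512491-152512979), a retrogene copy of the translation factor gene Mcts1 inside H13, was close to fully methylated rather than intermediate. Its level was 96.8% in B cells of Sca1-BCL6Δ mice (36 reads), 98.0% in wild-type B cells (36 reads), 94.3% in Sca1-BCL6Δ HSPCs (18 reads) and 83.1% in wild-type HSPCs (27 reads). These values differ from the intermediate level that the listing of Mcts2 as a region methylated on a single allele would give. Few unmethylated reads were seen outside the wild-type HSPC library. With 18 to 36 reads per library and no way to tell the parental alleles apart, they do not decide that listing. The reason for the high level was not tested. Over those of the 11 CpGs in capitals in its printed promoter that a library covered, the level was 96.8% in B cells of Sca1-BCL6Δ mice, 98.3% in wild-type B cells, 96.6% in Sca1-BCL6Δ HSPCs and 78.0% in wild-type HSPCs. Most of the unmethylated reads in wild-type HSPCs came from the end at 152512694 to 152512716, where 8 of 8 reads were methylated in B cells of Sca1-BCL6Δ mice, 11 of 11 in wild-type B cells, 5 of 5 in Sca1-BCL6Δ HSPCs and 6 of 10 in wild-type HSPCs. Elsewhere in the genome, CpGs fully methylated in both B cell libraries had a mean level of 96.0% in Sca1-BCL6Δ HSPCs, over 6371 CpGs, and 83.9% in wild-type HSPCs, over 12742 CpGs. The part of that lower level of the wild-type HSPC library in its Mcts2 value was not tested.

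On chromosome 11, Grb10 (chr11:11925499-11926556), which encodes an adaptor protein that restrains insulin and growth factor receptor signalling, had levels of 56.9% in B cells of Sca1-BCL6Δ mice (80 reads), 49.4% in wild-type B cells (177 reads), 70.2% in Sca1-BCL6Δ HSPCs (56 reads) and 54.5% in wild-type HSPCs (88 reads). Sca1-BCL6Δ HSPCs were highest, and theirs was the read interval that lay above 50%. Zrsr1 (chr11:22871842-22872322), a retrogene for a splicing factor-like protein inside Commd1, had levels of 46.1% in B cells of Sca1-BCL6Δ mice (84 reads), 43.1% in wild-type B cells (98 reads), 42.5% in Sca1-BCL6Δ HSPCs (67 reads) and 52.0% in wild-type HSPCs (88 reads). At those of the 5 CpGs in capitals in its printed promoter that a library covered, the levels were 40.9% in B cells of Sca1-BCL6Δ mice (22 counts), 53.5% in wild-type B cells (43 counts), 50% in Sca1-BCL6Δ HSPCs (8 counts) and 54.5% in wild-type HSPCs (11 counts). The listed part of Zrsr1 had 45.7% in B cells of Sca1-BCL6Δ mice (81 counts), 38.9% in wild-type B cells (113 counts), 28.4% in Sca1-BCL6Δ HSPCs (67 counts) and 59.2% in wild-type HSPCs (71 counts), and its flanks 46.4% in B cells of Sca1-BCL6Δ mice, 48.8% in wild-type B cells, 53.5% in Sca1-BCL6Δ HSPCs and 47.1% in wild-type HSPCs, on at least 84 counts each. The pooled levels thus lay closer together in the flanks than in the listed part, but single flank CpGs differed in opposite directions between the HSPC libraries. At 22872534, 4 of 14 reads were methylated in Sca1-BCL6Δ HSPCs and 10 of 11 in wild-type HSPCs. At 22872777 the counts were 9 of 13 in Sca1-BCL6Δ HSPCs and 6 of 15 in wild-type HSPCs.

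The intervals of Meg3 and Airn each joined stretches of unlike methylation. The Meg3 region (chr12:110762702-110768989), between the gene Dlk1 and the noncoding RNA gene Meg3, had levels of 79.1% in B cells of Sca1-BCL6Δ mice (41 reads), 67.6% in wild-type B cells (78 reads), 88.1% in Sca1-BCL6Δ HSPCs (28 reads) and 71.9% in wild-type HSPCs (43 reads). At its fragment end 110763922 to 110763923, 4 of 14 reads were methylated in B cells of Sca1-BCL6Δ mice, 1 of 21 in wild-type B cells, 2 of 6 in Sca1-BCL6Δ HSPCs and 3 of 6 in wild-type HSPCs. At 110764888 to 110764905 the methylated reads were 11 of 11 in B cells of Sca1-BCL6Δ mice, 18 of 18 in wild-type B cells, 9 of 9 in Sca1-BCL6Δ HSPCs and 10 of 13 in wild-type HSPCs. Each Meg3 end with at least 10 reads in a B cell library had at most 28.6% or at least 89.5% methylated reads there, so the pooled level depends on how many reads each end supplies. Airn (chr17:12934175-12935611), the promoter of a noncoding RNA inside Igf2r that silences its host gene, had levels of 53.5% in B cells of Sca1-BCL6Δ mice (42 reads), 64.8% in wild-type B cells (105 reads), 74.7% in Sca1-BCL6Δ HSPCs (38 reads) and 75.0% in wild-type HSPCs (66 reads). Its listed part was lower than its flanks in each library, at 45.1% against 94.1% in Sca1-BCL6Δ B cells, 57.5% against 91.7% in wild-type B cells, 69.4% against 90.5% in Sca1-BCL6Δ HSPCs and 71.2% against 85.0% in wild-type HSPCs, where the flanks had 17 counts in B cells of Sca1-BCL6Δ mice, 48 in wild-type B cells, 21 in Sca1-BCL6Δ HSPCs and 40 in wild-type HSPCs. In the listed part both HSPC libraries were above both B cell libraries.

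**Figure D1:**
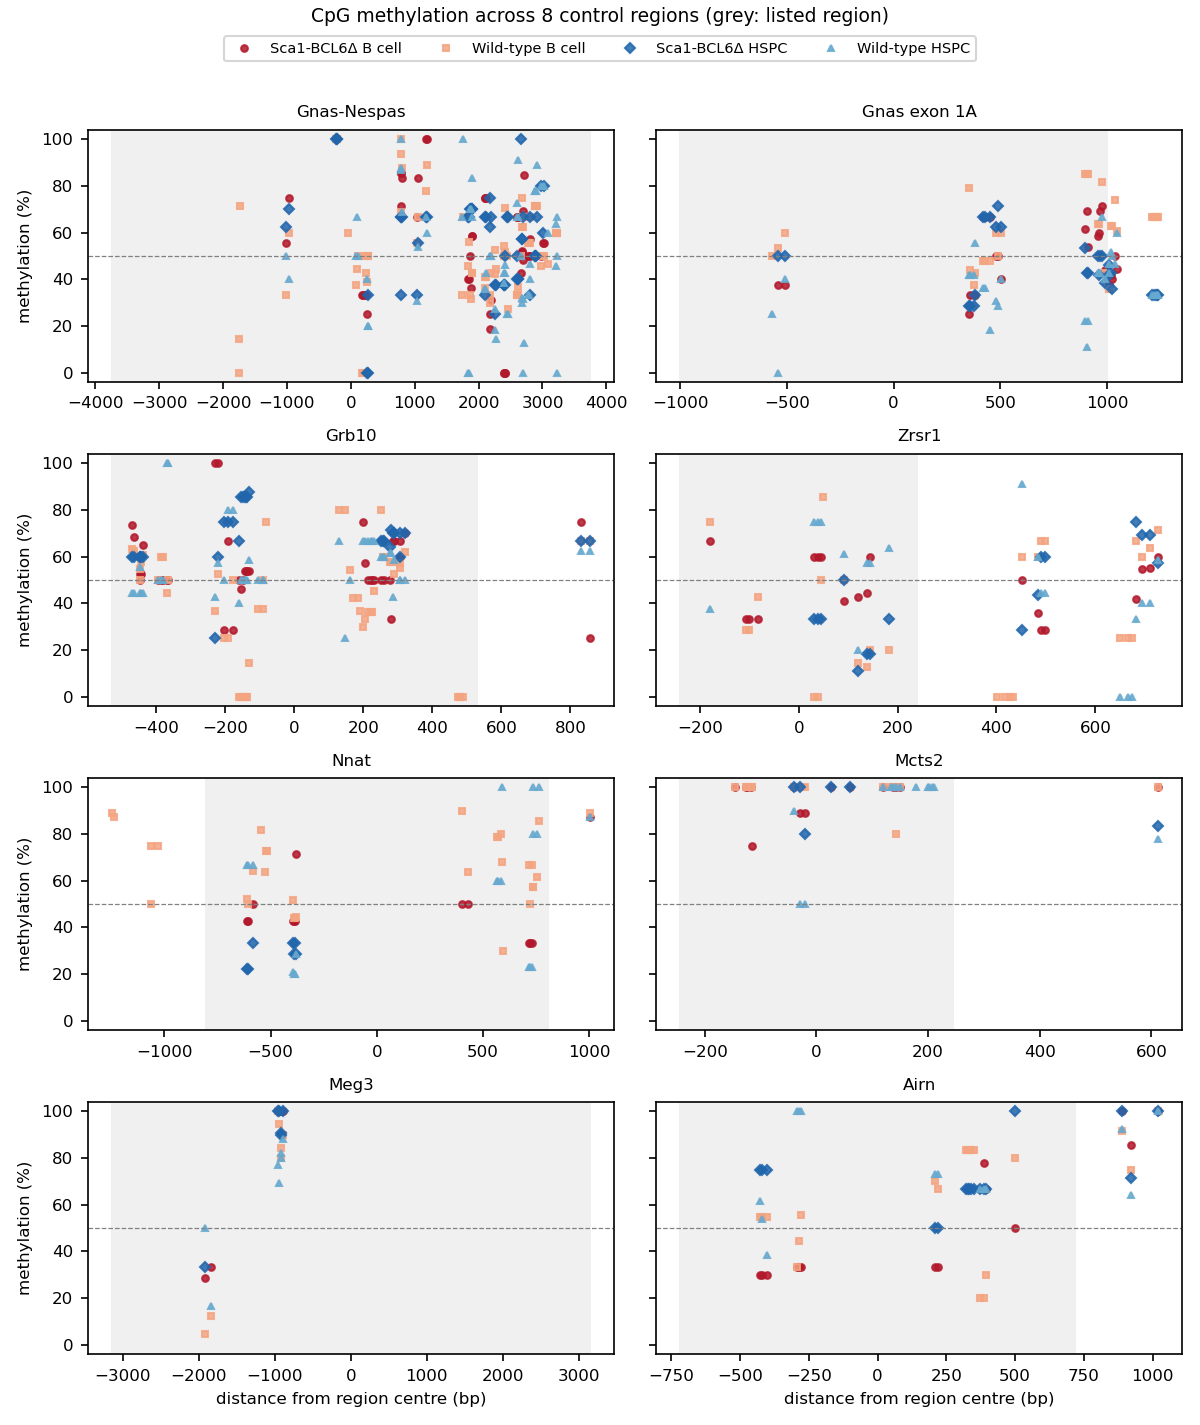
Methylation of single CpGs (y axis, %) by distance from the centre of the region (x axis, bp) in the 8 regions described in full; each point is a CpG with at least 3 reads in 1 library, colour and shape give the library, grey marks the listed region and white its flanks, and the dashed line is 50%. Points scatter around 50% in Gnas-Nespas, Gnas exon 1A, Grb10 and Zrsr1, lie near 100% in Mcts2, and form a low and a high cluster in Meg3.

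The paternally methylated region H19 (chr7:149766168-149768424), an insulator between Igf2 and its enhancers upstream of the H19 noncoding RNA gene, had levels of 53.3% in B cells of Sca1-BCL6Δ mice (26 reads), 81.5% in wild-type B cells (61 reads), 63.2% in Sca1-BCL6Δ HSPCs (18 reads) and 66.7% in wild-type HSPCs (42 reads). Most of these reads came from fragment ends with 1 CpG each. Plagl1 (chr10:12810309-12811570), a zinc finger transcription factor gene, had levels of 56.4% in B cells of Sca1-BCL6Δ mice, 39.6% in wild-type B cells, 42.2% in Sca1-BCL6Δ HSPCs and 45.2% in wild-type HSPCs. Over those of the 11 CpGs in capitals in its promoter that a library covered, Sca1-BCL6Δ B cells had 59.6% and wild-type B cells 44.2%. Sca1-BCL6Δ HSPCs had 15.2%, on 7 reads, 1 of them methylated, and wild-type HSPCs 51.3%. Reads over the 11 CpGs numbered 14 in B cells of Sca1-BCL6Δ mice, 40 in wild-type B cells and 10 in wild-type HSPCs. The HSPC libraries covered unlike CpGs. Bases 211, 216 and 232 of the sequence had 4 of 4 reads methylated in wild-type HSPCs and no reads in Sca1-BCL6Δ HSPCs. Each base from 283 to 299 had 1 of 6 methylated in Sca1-BCL6Δ HSPCs and 1 of 5 in wild-type HSPCs. Bases 42, 53 and 71 had 1 read in each HSPC library.

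The imprinted zinc finger gene Peg3 had 63.6% in B cells of Sca1-BCL6Δ mice, 52.3% in wild-type B cells, 51.0% in Sca1-BCL6Δ HSPCs and 49.4% in wild-type HSPCs. At Mest, which encodes a hydrolase-like membrane protein, Sca1-BCL6Δ B cells had 47.8%, wild-type B cells 47.9%, Sca1-BCL6Δ HSPCs 61.3% and wild-type HSPCs 50.8%. Snrpn, a splicing protein gene of the Prader-Willi region, had 48.1% in B cells of Sca1-BCL6Δ mice, 51.6% in wild-type B cells, 58.3% in Sca1-BCL6Δ HSPCs and 50.8% in wild-type HSPCs. These regions stayed between 47.8 and 63.6% in every library. The promoter of Kcnq1ot1, an antisense noncoding RNA inside Kcnq1, had 58.8% in B cells of Sca1-BCL6Δ mice, 37.4% in wild-type B cells, 54.3% in Sca1-BCL6Δ HSPCs and 44.3% in wild-type HSPCs. Peg13, a noncoding RNA gene inside Trappc9, had 46.8% in B cells of Sca1-BCL6Δ mice, 44.9% in wild-type B cells, 44.6% in Sca1-BCL6Δ HSPCs and 60.0% in wild-type HSPCs. Impact, which encodes a regulator of translation, had 52.3% in B cells of Sca1-BCL6Δ mice, 40.0% in wild-type B cells, 47.1% in Sca1-BCL6Δ HSPCs and 54.5% in wild-type HSPCs. By pooled level, wild-type B cells were lowest for Kcnq1ot1 and Impact, Sca1-BCL6Δ HSPCs for Peg13 and wild-type HSPCs for Peg3. For Mest and Snrpn, Sca1-BCL6Δ B cells were lowest. By share of methylated reads the lowest library was the same for Kcnq1ot1 and Snrpn only. It was wild-type HSPCs for Impact (45%) and wild-type B cells for Mest (50%). For Peg13 it was Sca1-BCL6Δ B cells (39.3%) and for Peg3 Sca1-BCL6Δ HSPCs (50%). The order of the libraries in these regions thus depended on the measure.

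The remaining regions had 76 to 122 reads over the 4 libraries together. Nap1l5, a retrogene inside Herc3, had 62.9% in B cells of Sca1-BCL6Δ mice, 65.6% in wild-type B cells, 58.1% in Sca1-BCL6Δ HSPCs and 38.1% in wild-type HSPCs. Inpp5f, an inositol phosphatase gene, had 57.1% in B cells of Sca1-BCL6Δ mice, 59.7% in wild-type B cells, 60.5% in Sca1-BCL6Δ HSPCs and 42.2% in wild-type HSPCs, with 6 of the 7 CpGs covered in wild-type B cells in its flanks. Slc38a4, an amino acid transporter gene, had 61.5% in B cells of Sca1-BCL6Δ mice, 48.6% in wild-type B cells, 82.4% in Sca1-BCL6Δ HSPCs and 41.9% in wild-type HSPCs. Its range of 40.4 points was the widest of the 19 regions, on 14 reads in B cells of Sca1-BCL6Δ mice, 37 in wild-type B cells, 10 in Sca1-BCL6Δ HSPCs and 15 in wild-type HSPCs. Sca1-BCL6Δ HSPCs covered 5 of its CpGs, 2 of them in the listed part, and wild-type HSPCs 8, with 5 there. The listed part had 80% in Sca1-BCL6Δ HSPCs and 30.4% in wild-type HSPCs. At fragment ends covered by both, methylated reads made up 91.0% in Sca1-BCL6Δ HSPCs and 80.1% in wild-type HSPCs. That difference was 10.9 points (interval -19.1 to 40.9). The part of unlike coverage in the range was not tested.

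**Figure D2:**
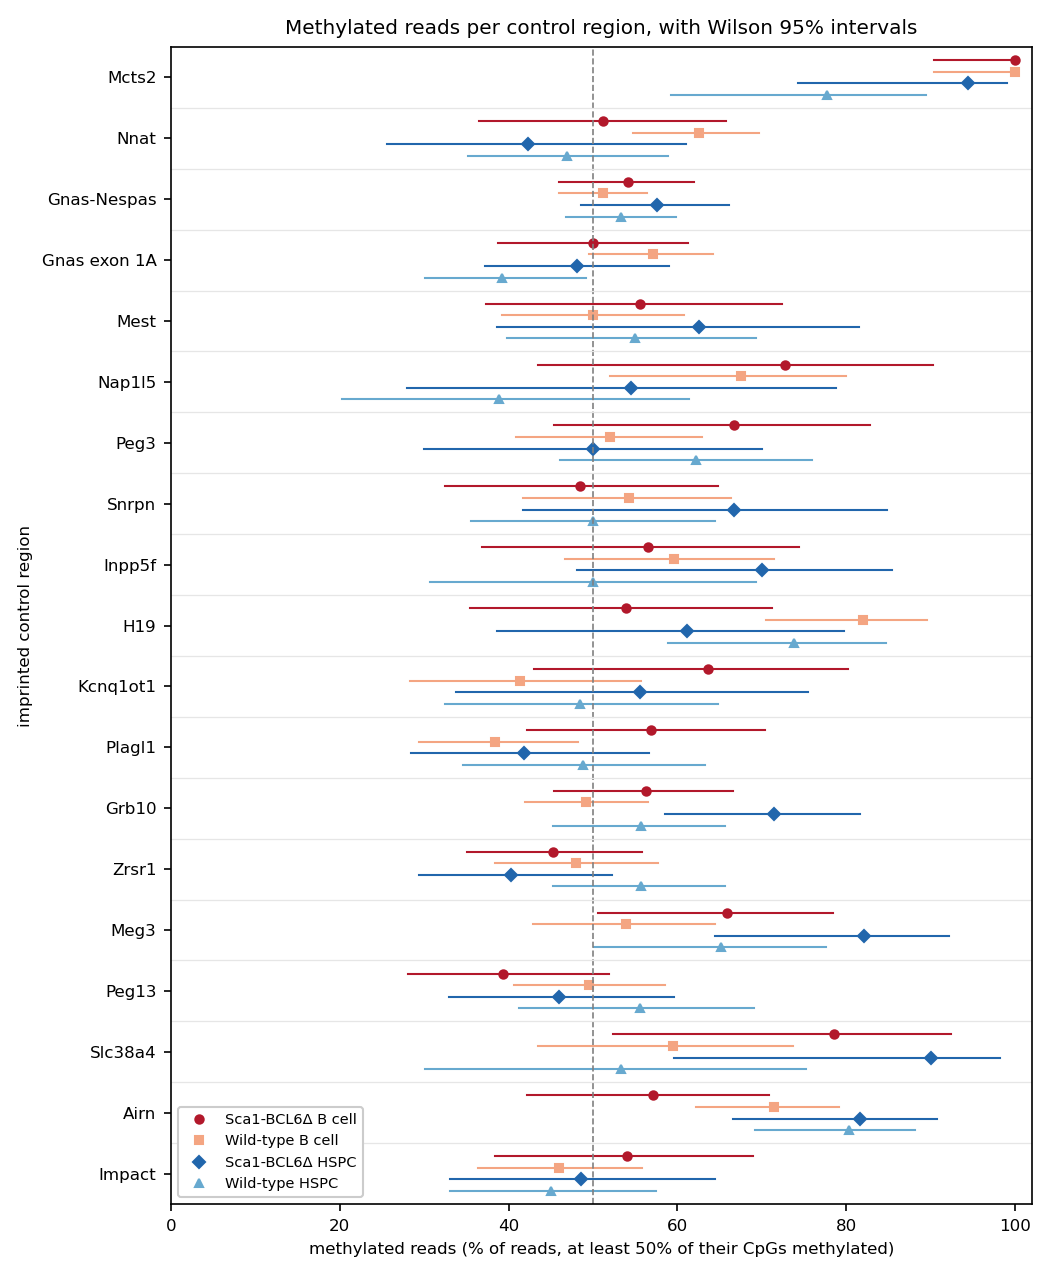
Share of methylated reads (x axis, % of reads with at least 50% of their CpGs methylated) in each of the 19 control regions kept (y axis), with 1 point per library and Wilson 95% intervals as bars; the dashed line is 50%. Mcts2 sits at the right edge, and 57 of the 76 bars cross 50%.

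Reads with several CpGs show whether neighbouring CpGs share a state, since a read comes from a single DNA strand. Of reads with at least 2 CpGs in the control regions there were 672 in B cells of Sca1-BCL6Δ mice, 1491 in wild-type B cells, 551 in Sca1-BCL6Δ HSPCs and 838 in wild-type HSPCs. Fully methylated reads made up 51.3% in B cells of Sca1-BCL6Δ mice, 48.1% in wild-type B cells, 50.6% in Sca1-BCL6Δ HSPCs and 45.6% in wild-type HSPCs. Fully unmethylated reads made up 38.4% in B cells of Sca1-BCL6Δ mice, 38.5% in wild-type B cells, 40.3% in Sca1-BCL6Δ HSPCs and 40.3% in wild-type HSPCs. Most reads therefore belonged to 1 of these 2 states, and mixed reads were the remainder: 10.3% in B cells of Sca1-BCL6Δ mice (Wilson 95% interval 8.19 to 12.8%), 13.4% in wild-type B cells (11.8 to 15.2%), 9.07% in Sca1-BCL6Δ HSPCs (6.95 to 11.8%) and 14.1% in wild-type HSPCs (11.9 to 16.6%). The intervals of the genotypes overlapped in B cells. In HSPCs they did not, by a narrow margin, with an upper bound of 11.8% in Sca1-BCL6Δ and a lower bound of 11.9% in wild-type HSPCs. The wild-type HSPC library also stood apart at other CpGs, and its part in this result was not tested. These intervals cover counting error only, with 1 library per group. Whether they overlap is not a test of the genotypes and does not set HSPCs apart from B cells.

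Other intermediate sites were mixed more often. At fragment ends outside the control regions with at least 10 reads and 20 to 80% methylated reads, mixed reads made up 24.4% over 6075 ends in B cells of Sca1-BCL6Δ mice, 26.6% over 20249 ends in wild-type B cells, 23.9% over 4008 ends in Sca1-BCL6Δ HSPCs and 21.9% over 19081 ends in wild-type HSPCs. Fragment ends of the control regions chosen by the same limits had 12.9% mixed reads over 21 ends in B cells of Sca1-BCL6Δ mice, 13.5% over 54 ends in wild-type B cells, 8.70% over 14 ends in Sca1-BCL6Δ HSPCs and 12.7% over 31 ends in wild-type HSPCs. At the same limits, reads with 4 or more CpGs were mixed in 18.9% of 111 member reads against 28.6% at other ends in B cells of Sca1-BCL6Δ mice, 19.03% of 431 against 34.6% in wild-type B cells, 10.9% of 92 against 28.8% in Sca1-BCL6Δ HSPCs and 12.7% of 189 against 26.6% in wild-type HSPCs. For reads with 2 CpGs the control regions had 19.05% mixed reads in B cells of Sca1-BCL6Δ mice, on 21 reads of 2 ends, against 20.6% at other ends. They had 8.84% of 249 reads against 23.3% in wild-type B cells, 3.23% of 31 against 18.9% in Sca1-BCL6Δ HSPCs and 11.3% of 97 against 19.8% in wild-type HSPCs. The gap was thus small in Sca1-BCL6Δ B cells with 2 CpGs per read and larger in the other values. Without a limit on methylation, the share of mixed reads outside the control regions was 12.03% in B cells of Sca1-BCL6Δ mice, 14.05% in wild-type B cells, 11.9% in Sca1-BCL6Δ HSPCs and 17.4% in wild-type HSPCs. Over all reads the control regions were thus close to the rest of the genome, where most sites are nearly fully methylated or unmethylated, and the lower share of mixed reads was seen against other intermediate ends. No test was run on these shares, because the regions and the other ends differ in CpG density and each share comes from 1 library.

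**Figure D3:**
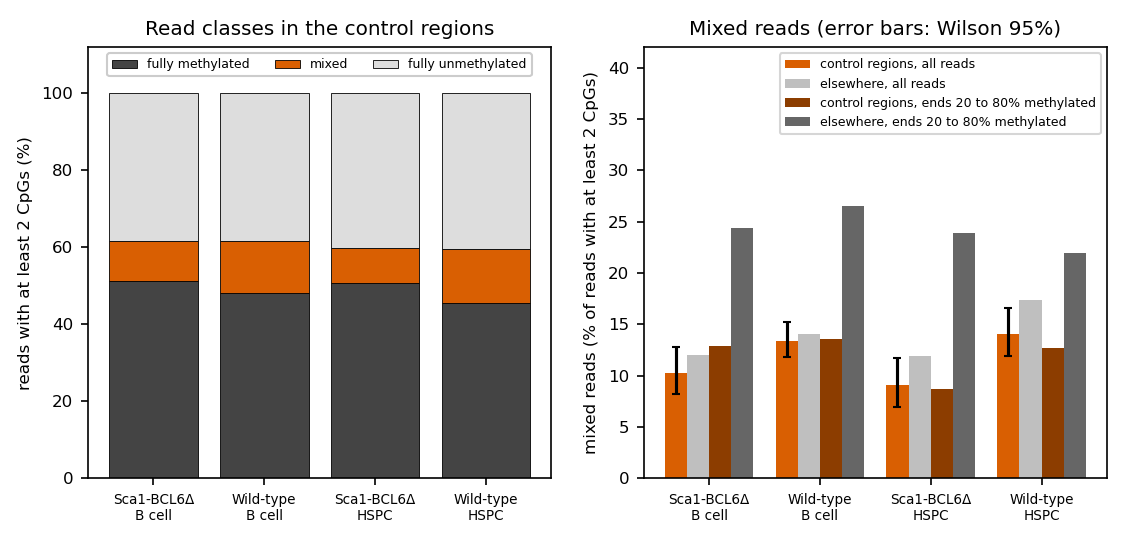
Left, fully methylated, mixed and fully unmethylated reads (y axis, % of reads with at least 2 CpGs) in the control regions of each library; right, mixed reads (y axis, %) in the control regions and elsewhere, over all reads and at fragment ends with 20 to 80% methylated reads; error bars are Wilson 95% intervals for all reads of the control regions. Over all reads the shares lie between 9.07 and 14.1% in the control regions and between 11.9 and 17.4% elsewhere, and at intermediate ends between 8.70 and 13.5% in the control regions and between 21.9 and 26.6% elsewhere.

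For Sca1-BCL6Δ B cells, which by design have lost the transgene, against wild-type B cells, no CpG or tile of the control regions was called. A CpG was tested by Fisher's exact test where both libraries had at least 10 reads. A 1 kb tile was tested by an exact conditional test on reads stratified by fragment end. A call needed an adjusted p under 0.05 over the whole genome and a difference of at least 20 points. A tile was a member when its midpoint lay in a widened region, so it can hold reads from outside the region. The Gnas-Nespas tile 174118001 to 174119000 held 23 reads in Sca1-BCL6Δ B cells and 30 in wild-type B cells. That region had no CpG counts in its flanks. Of 75 member CpGs tested 0 were called, against a background of 0.0172% of all CpGs, and 0 had an unadjusted p under 0.05, against 1.68% of all CpGs. Of 31 member tiles 0 were called, against 0.00642% of all tiles, and 3 had an unadjusted p under 0.05, or 9.68% against 2.70% of all tiles. These tiles include 1 of Peg10, with 8 of 11 methylated reads in B cells of Sca1-BCL6Δ mice and 9 of 16 in wild-type B cells (adjusted p = 1, exact conditional test), since Peg10 was dropped from the region levels only. At these background shares few or no calls correspond to so few members, so the counts of 0 do not by themselves set the regions apart. The same holds for the HSPC genotype and Sca1-BCL6Δ development comparisons below. The median tile difference between the B cell libraries was 2.87 points in the control regions and 0 over all tiles. The 3 tiles with a low unadjusted p, which fail the adjustment (adjusted p = 1, exact conditional test), were in Plagl1, with 24 of 42 methylated reads in B cells of Sca1-BCL6Δ mice and 33 of 86 in wild-type B cells, in Grb10, with 27 of 47 in B cells of Sca1-BCL6Δ mice and 30 of 71 in wild-type B cells, and in H19, with 12 of 22 in B cells of Sca1-BCL6Δ mice and 26 of 34 in wild-type B cells. The share was higher in the Sca1-BCL6Δ library in Plagl1 and Grb10 and lower in H19.

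Over whole regions, the difference in methylated reads at fragment ends covered by both B cell libraries had a 95% interval that included 0 in 15 of 19 regions. The exceptions were 4. H19 had 49.5% methylated reads in B cells of Sca1-BCL6Δ mice and 82.4% in wild-type B cells, a difference of -32.9 points (95% interval -55.7 to -10.0). Plagl1 had 60.6% in B cells of Sca1-BCL6Δ mice and 38.5% in wild-type B cells, a difference of 22.1 points (3.13 to 41.0). Grb10 had 59.7% in B cells of Sca1-BCL6Δ mice and 43.5% in wild-type B cells, a difference of 16.2 points (1.963 to 30.4). Meg3 had 66.0% in B cells of Sca1-BCL6Δ mice and 52.8% in wild-type B cells, a difference of 13.2 points (2.46 to 23.8). These intervals are not adjusted for the 19 regions and cover counting error only. Mcts2 reads at shared ends were all methylated, 22 in B cells of Sca1-BCL6Δ mice and 34 in wild-type B cells.

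Sca1-BCL6Δ HSPCs against wild-type HSPCs addressed the stage at which the design places Bcl6 expression. Of 43 member CpGs 0 were called, against 0.037% of all CpGs, and 1 had an unadjusted p under 0.05, against 4.44% of all CpGs. Of 21 member tiles 0 were called, against 0.0587% of all tiles, and 0 had an unadjusted p under 0.05, against 10.7% of all tiles. The median tile difference was 6.37 points in the control regions and 6.42 points over all tiles. The 1 CpG was in a flank of Zrsr1 at 22872534, with 4 of 14 reads methylated in Sca1-BCL6Δ HSPCs and 10 of 11 in wild-type HSPCs (adjusted p = 0.540, Fisher's exact test). The flank CpG at 22872777 went the other way, with 9 of 13 in Sca1-BCL6Δ HSPCs and 6 of 15 in wild-type HSPCs. Zrsr1 was also the 1 region of 19 whose interval left out 0, with 41.8% methylated reads in Sca1-BCL6Δ HSPCs and 59.9% in wild-type HSPCs, a difference of -18.0 points (95% interval -35.7 to -0.32).

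For B cells against HSPCs of Sca1-BCL6Δ mice, 0 of 38 member CpGs were called, against 0.0183% of all CpGs, and 0 of 23 member tiles, against 0.0844% of all tiles. No member CpG or tile had an unadjusted p under 0.05, against 1.74% of all CpGs and 3.87% of all tiles. Airn was the 1 region of 19 whose interval left out 0, with 60.6% methylated reads in Sca1-BCL6Δ B cells and 81.7% in Sca1-BCL6Δ HSPCs, a difference of -21.1 points (95% interval -39.9 to -2.33). This comparison does not use the wild-type HSPC library.

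For B cells against HSPCs of wild-type mice, calls were common in the genome and absent from the control regions. Of 153647 tiles, 5.85% were called, 8539 higher and 445 lower in wild-type B cells, and of 29 member tiles 0 were called. Of 103 member CpGs 0 were called, against 0.734% of all CpGs. Unadjusted p-values under 0.05 were found for 10 member CpGs, 4 higher and 6 lower in wild-type B cells, or 9.71% against 10.6% of all CpGs, and for 2 member tiles, or 6.90% against 22.8% of all tiles. Neighbouring CpGs can lie in the same reads, so the CpGs are not separate results, whereas tiles count each read once. At Mcts2, 152512706 and 152512715 both had 11 of 11 in wild-type B cells and 5 of 10 in wild-type HSPCs. The median tile difference was 4.09 points in the control regions and 9.80 points over all tiles. With 29 tiles tested, a background of 5.85% corresponds to few calls, so the count of 0 by itself does not set the regions apart.

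The wild-type members nearest to a call were in Gnas-Nespas and Mcts2. The CpG at 174125363 of Gnas-Nespas had 11 of 30 reads methylated in wild-type B cells and 10 of 11 in wild-type HSPCs (adjusted p = 0.147, Fisher's exact test). The CpG at 174125424 went the other way, with 12 of 16 in wild-type B cells and 6 of 20 in wild-type HSPCs. The tile that holds both had 70 of 145 methylated reads in wild-type B cells and 47 of 92 in wild-type HSPCs. The Mcts2 tile had 17 of 17 methylated reads in wild-type B cells and 13 of 17 in wild-type HSPCs (adjusted p = 0.181, exact conditional test). The Gnas exon 1A tile had 44 of 76 in wild-type B cells and 18 of 51 in wild-type HSPCs (adjusted p = 0.192, exact conditional test). Over whole regions the interval left out 0 for Mcts2, with 100% methylated reads in wild-type B cells and 75.2% in wild-type HSPCs, a difference of 24.8 points (95% interval 7.60 to 41.9). It also left out 0 for Gnas exon 1A, with 57.2% in wild-type B cells and 40.3% in wild-type HSPCs, a difference of 16.8 points (3.54 to 30.1), and included 0 in the other 17 regions. With the Sca1-BCL6Δ HSPC library in place of the wild-type HSPC library, an alternative chosen after seeing the data, 0 of 65 member CpGs were called, against 0.0775% of all CpGs, and 0 of 24 member tiles, against 0.249% of all tiles. Unadjusted p-values under 0.05 were found for 2 member CpGs, or 3.08% against 2.44% of all CpGs, and for 2 member tiles, or 8.33% against 4.95% of all tiles. The median tile difference over all tiles in this comparison was 0.

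**Figure D4:**
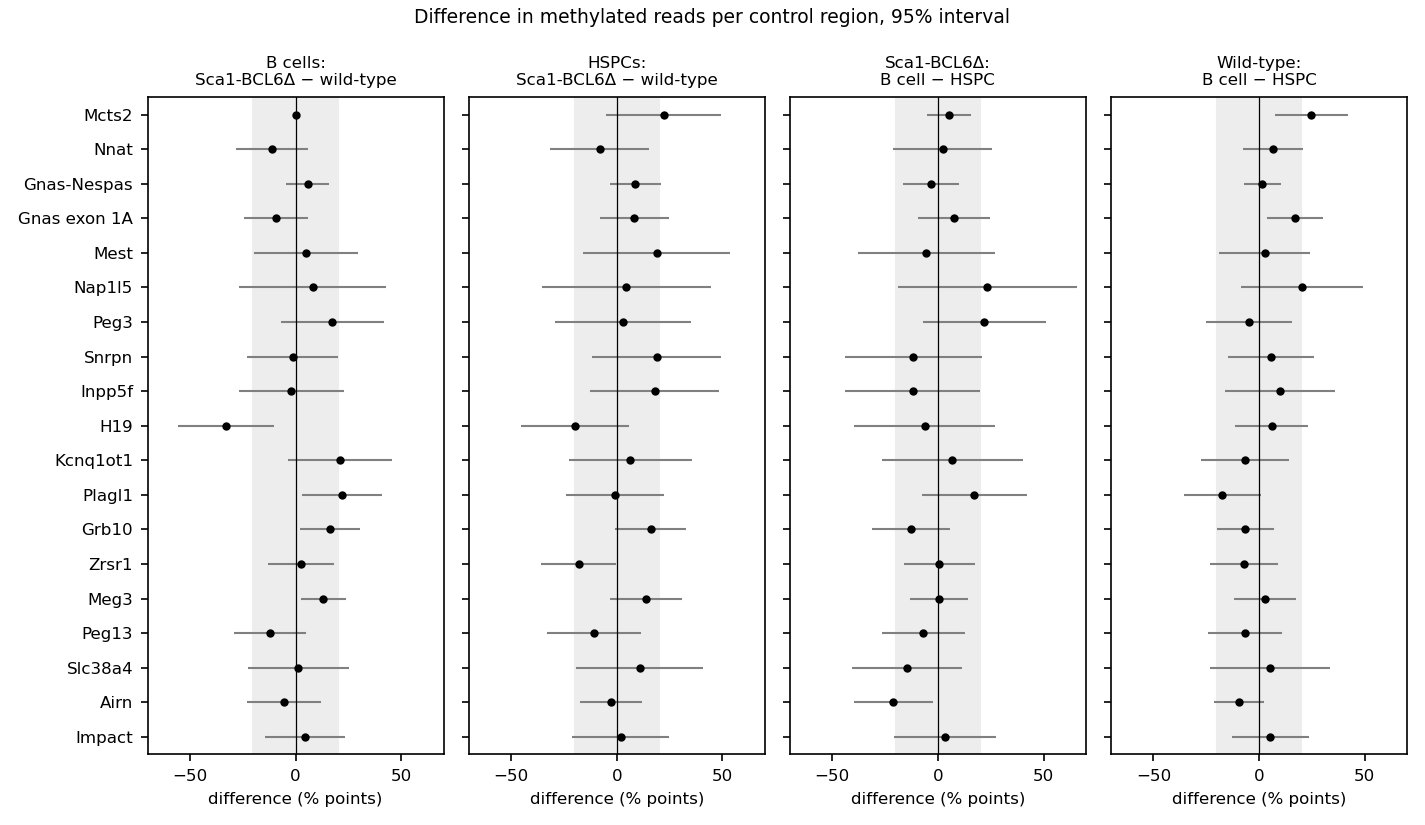
Difference in methylated reads (x axis, percentage points, first library minus second) over fragment ends covered by both libraries, for the 19 control regions (y axis) in the 4 comparisons; points are Mantel-Haenszel differences, bars their 95% intervals, and grey marks 20 points either side of 0. Bars that miss 0 belong to H19, Plagl1, Grb10 and Meg3 in B cells, Zrsr1 in HSPCs, Airn in Sca1-BCL6Δ mice, and Mcts2 and Gnas exon 1A in wild-type mice.

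Depth set what could be seen. The 95% intervals of the region differences reached a median of 18.9 points either side for the B cell genotypes, 23.3 for the HSPC genotypes, 24.0 for Sca1-BCL6Δ development and 17.6 for wild-type development. A shift of 20 points would thus exceed the counting error in most regions of the B cell genotype and wild-type development comparisons, and would lie within it in most regions of the other 2.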

How the data were processed

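The authors mapped the RRBS reads to mm9, per the submitters' processing notes; the sources used here name no aligner, and none of them states a removal of PCR duplicates. The deposited CpG tables gave methylated and total read counts per CpG as a pair of whole numbers. Their score column, per the file headers the mean methylation, was not used in tests. The deposited read tables gave, per read, its count of CpGs and the percent of them methylated.

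Samples were grouped by the labels, with 1 pooled library per group. Regions were named from knowledge of the imprinted gene at each mm9 position, and 20 of 20 gene symbols were on that chromosome in the RefSeq table. Region members and lists were chosen with earlier results of these data known. Levels are given for every region kept; described in full were those with a called CpG or tile (0 regions), the 5 with the most reads and the 3 whose mean level lay farthest from 50%. H19 and Plagl1 were described further after their values were seen.

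Single CpGs went through a two-sided Fisher's exact test if each library of the pair had 10 or more reads there. Tiles of 1 kb with at least 10 reads in both libraries, at fragment ends that both covered, were tested with a two-sided exact conditional test stratified by fragment end. Member tiles were those whose midpoint lay in a widened region. Benjamini-Hochberg adjustment ran over all CpGs or all tiles of the genome tested. Region differences are Mantel-Haenszel risk differences over shared fragment ends with Sato 95% intervals. Scripts used Python 3.11.15, numpy 2.4.6, pandas 2.3.3, scipy 1.17.1 and matplotlib 3.10.9, and the tests were tested on simulated data. Alternatives changed the coverage and read minimums, the widening, the deepest 0.5% of CpGs or fragment ends, the rule for a methylated read, the size of a called difference, the CpGs per read and the test.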

Additional observations from a re-analysis of the deposited data

How the results depend on the processing

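In all 46 alternatives to the counts of called CpGs and tiles the count stayed at 0, including the Sca1-BCL6Δ HSPC library in place of the wild-type one, which was chosen after seeing the data. In the main settings 0.00642 to 5.85% of all features were called, which corresponds to few or no calls among so few members. An unchanged count of 0 therefore does not show that the regions did not differ. No paired analysis was possible because each group had 1 library, and no library could be left out for the same reason. Of the medians over regions and shares of mixed reads, 13 values moved by more than their limits. With a mean over CpGs of at least 5 reads the median level was 56.0% in wild-type B cells and 53.3% in HSPCs of Sca1-BCL6Δ mice. Over CpGs covered in all 4 libraries it was 52.8% in wild-type HSPCs. Without widening, which kept 16 regions, it was 54.8% in Sca1-BCL6Δ HSPCs and 52.7% in wild-type HSPCs. With at least 50 reads in every library, which kept 4 regions, it was 51.3% in B cells of Sca1-BCL6Δ mice, 50.1% in wild-type B cells and 51.1% in HSPCs of Sca1-BCL6Δ mice. Mixed reads made up 15.1% in B cells of Sca1-BCL6Δ mice and 18.1% in wild-type B cells with at least 4 CpGs per read. Over all reads, where reads with 1 CpG cannot be mixed, they made up 8.01% in B cells of Sca1-BCL6Δ mice, 10.3% in wild-type B cells and 10.8% in wild-type HSPCs. The cause of the moves in median level was not tested.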

Other observations

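Of 91 fragment ends of the control regions with at least 5 reads in both libraries of a genotype, 2 had 0 reads in both libraries of the other, or 2.20%, against 1.97% of 381817 other ends. The end at chromosome 2, 152512762 to 152512796, plus strand, in Mcts2 had 11 reads in Sca1-BCL6Δ B cells and 7 in Sca1-BCL6Δ HSPCs, all methylated, and 0 in wild-type B cells and wild-type HSPCs. The end at chromosome 6, 30685476 to 30685509, minus strand, in Mest had 0 reads in both Sca1-BCL6Δ libraries, 5 in wild-type B cells, of which 80% were methylated, and 5 in wild-type HSPCs, of which 60% were methylated.

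Reads of the control regions carried more CpGs than other reads: 2.88 against 1.997 in Sca1-BCL6Δ B cells, 2.78 against 1.86 in wild-type B cells, 2.90 against 2.11 in Sca1-BCL6Δ HSPCs and 2.81 against 1.86 in wild-type HSPCs.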
